A study of Mus musculus with 6 samples.

Results

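The transcripts described here encode the constitutive subunits of the proteasome, measured in Nutlin-treated mouse leukaemia cells with and without Gata2. The members are 31 genes chosen by name: the 7 alpha and 7 beta subunits of the 20S core (Psma1 to Psma7 and Psmb1 to Psmb7), the 6 ATPases of the 19S cap (Psmc1 to Psmc6) and 11 of its other subunits (Psmd1, Psmd2, Psmd3, Psmd4, Psmd6, Psmd7, Psmd8, Psmd11, Psmd12, Psmd13 and Psmd14). All 31 were found among the 49585 genes of the deposited count table, and all 31 passed the filter on low counts. Poly(A) RNA came from bone marrow leukaemias called MA9 (the MLL-AF9 fusion gene is the usual meaning of that name) that were either Gata2 -/- (Gata2 KO, described as Cre in the sample descriptions) or Gata2 f/f, with loxP-flanked alleles. Cre and the deletion go together in the labels, so their effects cannot be told apart. All 6 samples, 3 of each genotype numbered 1 to 3, had 5 uM Nutlin for 18 h before RNA was taken, and they were grown with IL-3, IL-6 and SCF. Nutlin keeps the ubiquitin ligase MDM2 off p53, which then accumulates instead of being degraded by the proteasome. No samples without Nutlin were analysed here. Neither the Cre driver nor whether the 3 samples of a genotype were separate leukaemias is stated, and a p-value here covers only sample-to-sample spread, which may be technical.

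The proteasome is the particle that degrades ubiquitin-tagged proteins in the cytosol and nucleus. Its barrel-shaped core holds the peptide-cutting sites on the inner face of the beta rings, while the alpha rings gate the entrance, and the cap recognises ubiquitin, removes it and feeds the unfolded protein into the core with the help of its ATPase ring. Cells that run short of proteasome activity are known to raise the subunit genes together through the transcription factor Nrf1 (gene Nfe2l1), which binds antioxidant response elements (ARE) in their promoters. Interferon gamma can induce the immunoproteasome forms, which can take the places of the 3 catalytic beta subunits in the core.

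Promoters of 25 of the 31 genes were given by RefSeq (GRCm38.p6). The 250 bases before the RefSeq start were searched on both strands for the ARE core TGACNNNGC. These genes had 27 promoters. The core was found in 4 of the 27 (14.8%), each of a different gene, against 10.2% of 32851 promoters of the same length. These 4 are shown because an ARE is the element through which the subunit genes are known to be raised together. They are written 5′ to 3′ in the direction of the gene, with the matches in capitals, as TGACNNNGC or as its reverse complement.
Psmb5 (chr14:54617996-54618245, minus strand): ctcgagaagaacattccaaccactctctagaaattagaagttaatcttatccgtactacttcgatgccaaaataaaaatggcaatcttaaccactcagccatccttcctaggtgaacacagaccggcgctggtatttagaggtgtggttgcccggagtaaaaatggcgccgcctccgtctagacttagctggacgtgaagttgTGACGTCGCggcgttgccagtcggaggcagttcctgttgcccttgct
Psmb6 (chr11:70525107-70525356, plus strand): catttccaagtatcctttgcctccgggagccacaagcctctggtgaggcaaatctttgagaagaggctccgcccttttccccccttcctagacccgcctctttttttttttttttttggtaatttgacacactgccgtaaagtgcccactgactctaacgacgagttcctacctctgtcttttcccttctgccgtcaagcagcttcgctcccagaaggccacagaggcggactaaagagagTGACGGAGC
Psmc6 (chr14:45329574-45329823, plus strand): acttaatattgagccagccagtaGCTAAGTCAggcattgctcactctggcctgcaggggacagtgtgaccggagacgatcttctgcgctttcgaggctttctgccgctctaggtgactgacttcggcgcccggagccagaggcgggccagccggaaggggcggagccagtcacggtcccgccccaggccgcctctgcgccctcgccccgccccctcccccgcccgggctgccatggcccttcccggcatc
Psmd12 (chr11:107479278-107479527, plus strand): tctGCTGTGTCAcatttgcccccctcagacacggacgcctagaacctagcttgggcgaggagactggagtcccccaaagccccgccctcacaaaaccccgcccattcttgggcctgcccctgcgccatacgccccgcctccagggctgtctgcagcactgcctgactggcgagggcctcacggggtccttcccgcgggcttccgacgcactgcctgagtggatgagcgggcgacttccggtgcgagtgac
The match of Psmb5 began 47 bases before the start and that of Psmb6 began 9 bases before it, while those of Psmc6 and Psmd12 lay far upstream and on the other strand. The CCAAT box (CCAAT, either strand) was found in 10 of the 27 promoters (37.0%), against 33.9% of all promoters, and the E box CACGTG in 1 (Psma4; 3.7%), against 6.02%. The GATA-type sequence AGATAA was found in none of the 27, against 9.99% of all promoters. None of the 4 promoters shown held any of these other 3 motifs. A match is a description of letters, and a missing match says nothing about the factor.

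Total counts ran from 17138687 to 26440960 per library. The library labelled Gata2 KO 2 went against its label at the targeted gene, with 43.3 CPM (the read count scaled to library size with TMM factors) of Gata2, a zinc-finger transcription factor of blood progenitors. The libraries labelled Gata2 KO 1 and 3 had 5.44 and 4.33 CPM, against 33.6, 22.3 and 18.4 CPM in Gata2 f/f 1, 2 and 3. Every direction given for Gata2 KO includes that library unless stated. All 8 markers listed for the leukaemia were detected in every library, at levels that were steady for some and scattered for others. Hoxa9 was at 197 to 231 CPM in Gata2 KO and 168 to 178 CPM in Gata2 f/f, and Ptprc, the pan-leukocyte gene, at 231 to 293 CPM in Gata2 KO and 223 to 264 CPM in Gata2 f/f. The progenitor gene Kit was at 1.34 to 59.7 CPM in Gata2 KO and 28.5 to 88.7 CPM in Gata2 f/f, lowest in number 3 of each. Cd34 was at 4.68, 37.1 and 6.68 CPM in Gata2 KO and 35.1, 39.2 and 33.6 CPM in Gata2 f/f, and Mpo at 28.0 to 952 CPM in Gata2 KO and 84.9 to 446 CPM in Gata2 f/f. Markers of mature myeloid cells differed widely. The summed level of 10 late neutrophil genes was 1738, 585 and 3574 CPM in Gata2 KO 1, 2 and 3, and 263, 546 and 1998 CPM in Gata2 f/f 1, 2 and 3. That of 10 monocyte and macrophage genes was 1214, 1031 and 3401 CPM in Gata2 KO, and 772, 957 and 2506 CPM in Gata2 f/f. Both lists were highest in the 2 libraries numbered 3. A positive log2 fold change was found for 8 of 9 tested neutrophil genes and 8 of 10 monocyte genes, beside 52.5% of all genes. None of these marker genes passed edgeR's test between the genotypes after adjustment over all genes tested. Genes of a list share the same libraries, so their signs are not independent. B cell, T and NK cell, erythroid and megakaryocyte lists summed to at most 12.1 CPM in any library. The T and NK marker Ncr1 and the B cell marker Pax5 were at 0 in all 6. The stromal and endothelial list summed to 143 to 212 CPM in Gata2 KO and 127 to 176 CPM in Gata2 f/f. Its largest part was Pecam1, at 117 to 195 CPM in Gata2 KO and 116 to 161 CPM in Gata2 f/f. Col1a1, Col1a2, Cdh5 and Kdr were highest in the 2 libraries numbered 3, at no more than 16.7 CPM.

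All 31 subunit genes had reads in every library. Their mean level over the 6 libraries ran from 126 CPM (Psmd11) to 565 CPM (Psmd2), and their sum, scaled by library totals alone, was 6767 to 8264 CPM in Gata2 KO and 7162 to 8875 CPM in Gata2 f/f. Levels of different genes were compared as CPM per kb of the principal transcript (GENCODE M21). On that scale the highest was Psma6, an alpha ring subunit, at 448 ± 110 CPM per kb (SD, n = 6), followed by the beta subunit Psmb4 at 416 ± 110. The lowest was Psmd11, a cap subunit with a PCI domain, at 44.1 ± 2.83, below all libraries of the next lowest, the ATPase Psmc6 at 65.0 ± 14.4. The top and bottom of the order were 10.2-fold apart (19.2-fold with the length of all annotated exons), although the assembled particle holds its subunits in equal numbers. The catalytic Psmb6, Psmb5 and Psmb7 had 303, 154 and 136 CPM per kb. Among the ATPases Psmc1 was highest (216 CPM per kb) and Psmc6 lowest, and among the other cap subunits Psmd7 (193) and Psmd2 (191) led. In the order of 31 levels, only 1 of 30 neighbouring pairs had every library of the higher gene above every library of the lower one, that of Psmc6 and Psmd11. The order depends on the length used. With the length of all annotated exons Psma6 stayed first and Psmd11 last, but Psma7 went from rank 3 to rank 13. The lowest core gene was Psma3 (85.4 CPM per kb) with principal transcripts and Psmb7 (46.1 CPM per kb) with all exons. The median of the 14 core genes was 204 CPM per kb, against 130 for the 17 cap genes (109 against 68.5 with all exons).

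No proteasome subunit gene differed between the genotypes beyond the spread of the libraries. The targeted gene did not pass in the same fit either. Gata2 had a log2 fold change of -0.49 ± 0.86 (SE; edgeR, unadjusted p = 0.585), with the library labelled Gata2 KO 2 included. A lack of calls here is therefore no evidence of equal levels. Of the 31 members, 0 passed edgeR's quasi-likelihood test (Benjamini-Hochberg adjusted p over 13744 genes, threshold 0.05), where 0% of all genes tested passed. At an unadjusted p under 0.05 there were again 0 members, against 1.24% of all genes. DESeq2 called 0 members (0.0513% of all genes) and limma voom 0 (0% of all genes). Of the 31 log2 fold changes of Gata2 KO over Gata2 f/f, 19 were positive, with a median of 0.07 and a range of -0.28 to 0.32, beside a median of 0.02 over all genes and 52.5% positive. The standard errors of the members ran from 0.20 to 0.33, beside a median of 0.357 over all genes. Fitting the replicate number as a block changed no call: 0 of 31 members passed in edgeR (0% of all genes), 0 had an unadjusted p under 0.05 (10.7% of all genes), and 0 passed in DESeq2, where 1.75% of all genes did. Without the library labelled Gata2 KO 2, 0 members were called without the block and 0 with it (0.378% of all genes), and their median log2 fold change was 0.03 and 0.09.

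**Figure D1:**
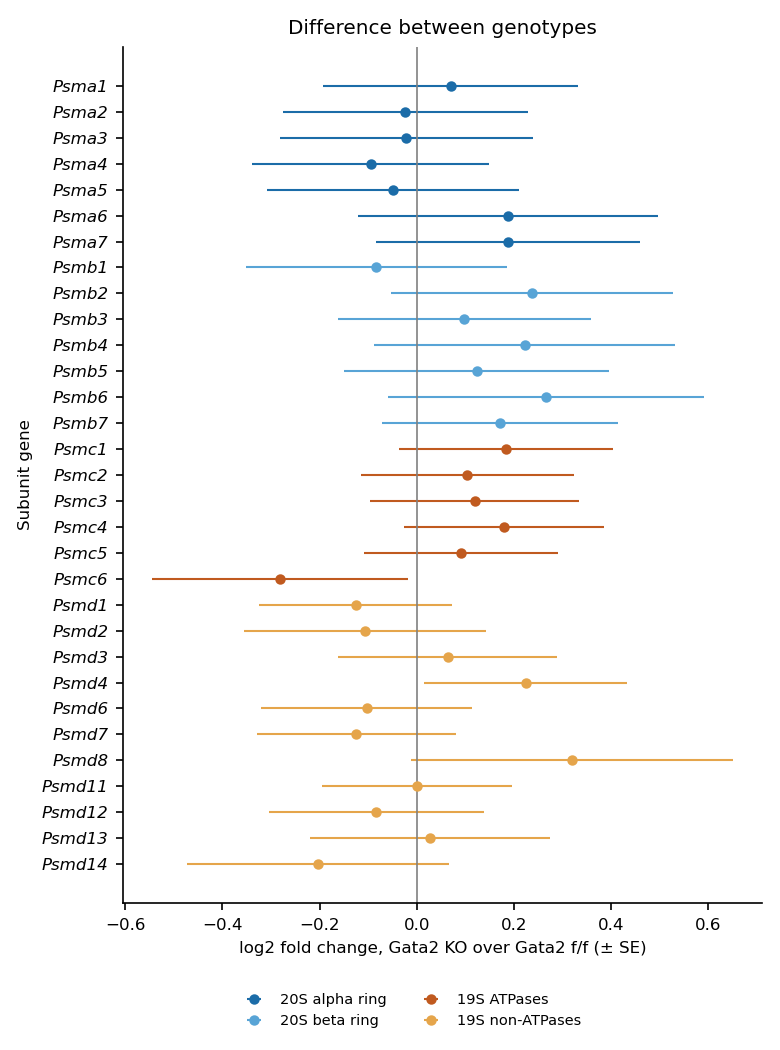
The log2 fold change of each of the 31 subunit genes, Gata2 KO over Gata2 f/f (horizontal axis, points with bars of 1 SE from edgeR without a block, n = 3 each), in rows by class (vertical axis, genes). The points lie between -0.28 (Psmc6) and 0.32 (Psmd8).

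For the 3 catalytic subunits of the core the genotypes overlapped. Psmb5, the chymotrypsin-like site that proteasome inhibitors such as bortezomib block (GRCm38 chromosome 14, 54614119 to 54618022, minus strand), was at 100, 145 and 187 CPM in Gata2 KO 1, 2 and 3, beside 118, 139 and 140 CPM in Gata2 f/f 1, 2 and 3. The KO libraries thus held both the lowest and the highest value and enclosed all Gata2 f/f values (log2 fold change 0.12 ± 0.27 SE; edgeR, adjusted p = 1.00). A processed pseudogene, Gm3375, is 98.9% identical to Psmb5 over 796 bases and had 12.0% as many counts, so its count is uncertain. Psmb6, the caspase-like site (chromosome 11, 70525367 to 70527858, plus strand), was at 176, 255 and 361 CPM in Gata2 KO and at 172, 210 and 276 CPM in Gata2 f/f. Each KO library exceeded the Gata2 f/f library of its number, but the groups overlapped (0.27 ± 0.33; edgeR, adjusted p = 1.00). Psmb7, the trypsin-like site (chromosome 2, 38588036 to 38644087, minus strand), was at 131, 176 and 194 CPM in Gata2 KO and at 123, 166 and 155 CPM in Gata2 f/f (0.17 ± 0.24; edgeR, adjusted p = 1.00). Here too each KO library exceeded its same-numbered partner. Exons of Psmb7 share 405 bases with Nek6 on the opposite strand, which had 32.4% as many counts. Whether the counting used strand is not given in the sources used here.

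The genotypes also overlapped at every other core subunit. Psma6 (chromosome 12, 55384222 to 55418454, plus strand) was at 329, 557 and 606 CPM in Gata2 KO, beside 335, 509 and 466 CPM in Gata2 f/f (0.19 ± 0.31; edgeR, adjusted p = 1.00). The libraries numbered 1 were low in both genotypes. Psmb4, which sits in the beta ring without a cutting site, was at 367, 516 and 706 CPM in Gata2 KO and at 362, 451 and 550 CPM in Gata2 f/f (0.22 ± 0.31). Psmb2, another beta subunit without a cutting site, was at 117, 157 and 234 CPM in Gata2 KO and at 129, 150 and 154 CPM in Gata2 f/f (0.24 ± 0.29). Its high value came from Gata2 KO 3, and leaving Gata2 KO 3 out gave -0.09. Psma3, the alpha subunit lowest per length, was at 177, 265 and 282 CPM in Gata2 KO and at 232, 286 and 217 CPM in Gata2 f/f, with opposite differences in numbers 1 and 3. In all, 4 rows of the table are near-identical to Psma3 and had 7.44% as many counts. The 7 alpha genes had 3 positive log2 fold changes (median -0.02, range -0.09 to 0.19) and the 7 beta genes 6 (median 0.17, range -0.08 to 0.27). The core genes not given library by library (Psma1, Psma2, Psma4, Psma5, Psma7, Psmb1 and Psmb3) lay inside these ranges.

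Of the 6 ATPase genes of the cap, which form the ring that unfolds substrates, 5 had positive log2 fold changes (median 0.11), from 0.09 for Psmc5 to 0.18 for Psmc1, with Psmc2, Psmc3 and Psmc4 between. Psmc1, the highest per length, was at 326, 400 and 370 CPM in Gata2 KO and at 298, 370 and 297 CPM in Gata2 f/f (0.18 ± 0.22; edgeR, adjusted p = 1.00). Each KO library exceeded its same-numbered partner, with log2 differences of 0.13, 0.12 and 0.32. Psmc6 (chromosome 14, 45329788 to 45349705, plus strand) went the other way, with the lowest log2 fold change of the 31. It was at 115, 167 and 112 CPM in Gata2 KO and at 153, 194 and 131 CPM in Gata2 f/f. Within each number the KO library was lower, with log2 differences of -0.41, -0.22 and -0.23, yet Gata2 KO 2 lay above Gata2 f/f 1 and 3, and the log2 fold change of -0.28 ± 0.26 did not pass (edgeR, adjusted p = 1.00; with the replicate block adjusted p = 0.516). Leaving out Gata2 KO 2 gave -0.50, and leaving out Gata2 f/f 2 gave -0.11.

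The 11 other cap genes had 5 positive values (median -0.08, range -0.20 to 0.32). Psmd3, Psmd6, Psmd12 and Psmd13, not given library by library, lay between -0.10 and 0.06. Psmd8, a lid subunit (chromosome 7, 29174188 to 29180701, minus strand), was at 171, 224 and 395 CPM in Gata2 KO and at 198, 204 and 231 CPM in Gata2 f/f. Its log2 fold change of 0.32 ± 0.33 rested on Gata2 KO 3, the highest library, and was -0.11 without it. Psmd4, a ubiquitin receptor of the cap, was at 161, 183 and 214 CPM in Gata2 KO and at 151, 164 and 163 CPM in Gata2 f/f, again above its partner in every number (0.22 ± 0.21; edgeR, adjusted p = 1.00). Psmd14, the deubiquitinating enzyme that cuts the chain off the substrate, was at 143, 216 and 225 CPM in Gata2 KO and at 207, 273 and 191 CPM in Gata2 f/f. The KO library was lower in numbers 1 and 2 and higher in number 3 (-0.20 ± 0.27). Psmd1, a scaffold of the cap base, was the only 1 of the 31 whose groups did not overlap, with 239, 248 and 248 CPM in Gata2 KO below 263, 289 and 250 CPM in Gata2 f/f. Over all genes tested, 2.78% had KO lower with no overlap and 5.42% did not overlap in either direction. The gap between Gata2 KO 3 and Gata2 f/f 3 was small, and the gene did not pass (-0.13 ± 0.20; edgeR, adjusted p = 1.00). Psmd7, a lid partner of Psmd14, was at 265, 314 and 298 CPM in Gata2 KO and at 319, 337 and 300 CPM in Gata2 f/f (-0.12 ± 0.20; edgeR, adjusted p = 1.00). Psmd11 was the steadiest of the 31, at 119, 133 and 125 CPM in Gata2 KO and at 136, 126 and 115 CPM in Gata2 f/f, a span of 1.19-fold over the 6 libraries and a log2 fold change of 0.00 ± 0.20. Psmd2, the other large base scaffold, was chosen after its values were seen: it was at 642, 584 and 407 CPM in Gata2 KO and at 553, 594 and 610 CPM in Gata2 f/f. Its lowest library was thus Gata2 KO 3, where 14 of the 31 were highest.

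**Figure D2:**
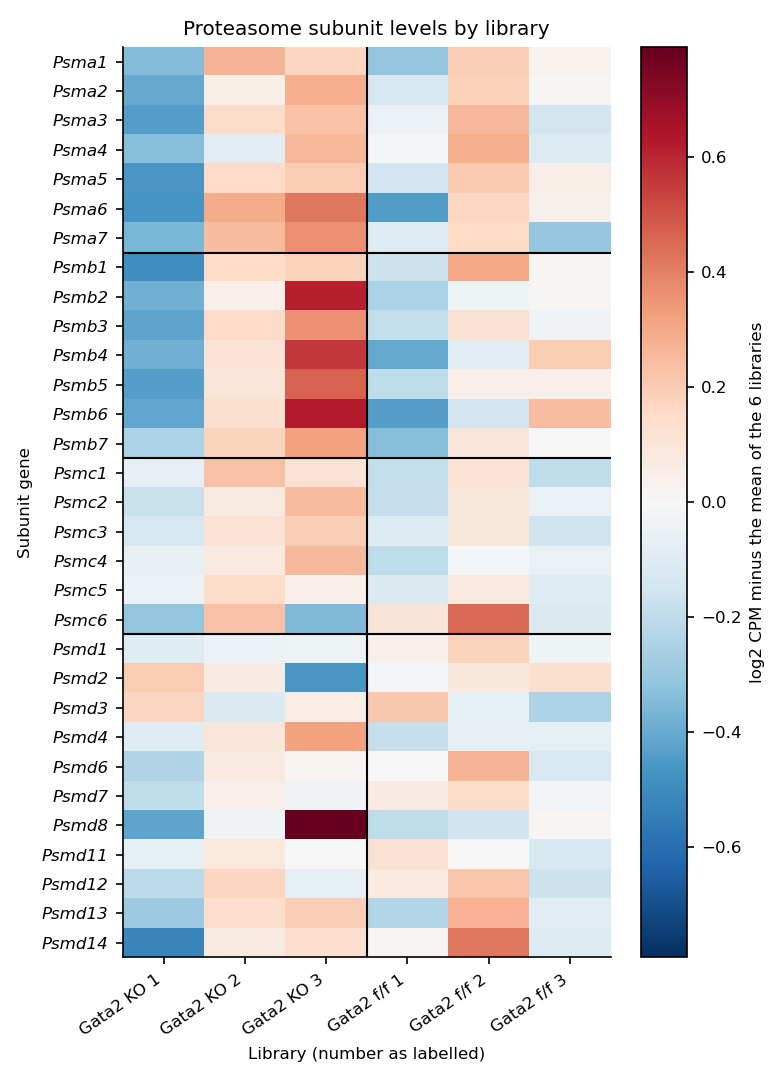
The log2 CPM of each subunit gene (rows, grouped as alpha, beta, ATPase and other cap genes) in each library (columns) minus its mean over the 6 libraries, by colour. Gata2 KO 1 held the lowest value for 18 of the 31 genes and Gata2 KO 3 the highest for 14, while Psmd2 was lowest in Gata2 KO 3.

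Of the 31 subunit genes, 18 were lowest in Gata2 KO 1 and 7 in Gata2 f/f 1, beside 15.7% and 13.9% of all genes tested. The highest library was Gata2 KO 3 for 14 genes and Gata2 f/f 2 for 11, beside 30.7% and 15.0% of all genes. Psmc1, Psmd2, Psmd3 and Psmd11 shared neither end of this layout. Psmc1 was highest in Gata2 KO 2, Psmd2 in Gata2 KO 1, and Psmd3 and Psmd11 in Gata2 f/f 1. Others shared 1 end: Psmc3 was lowest in Gata2 f/f 3 and Psmc6 in Gata2 KO 3, and Psma1 and Psmc5 were highest in Gata2 KO 2. The summed level of all 31 was 6538, 8366 and 9008 CPM in Gata2 KO 1, 2 and 3, and 7001, 8392 and 7571 CPM in Gata2 f/f 1, 2 and 3. The means were 7971 ± 1282 CPM in Gata2 KO and 7655 ± 699 CPM in Gata2 f/f (SD, n = 3 each), so the difference of 316 CPM was smaller than either SD. Scaled by library totals the difference turned to -151 CPM, and leaving out Gata2 KO 3 gave -203 CPM, and leaving out Gata2 f/f 1 gave -11.1 CPM. The spread was widest in the core: the beta sum was 1210, 1737 and 2207 CPM in Gata2 KO, and 1290, 1629 and 1712 CPM in Gata2 f/f. The sum of the 11 non-ATPase cap genes stayed between 2466 and 2732 CPM in Gata2 KO and between 2562 and 2862 CPM in Gata2 f/f. The ratio of core to cap sums was accordingly 0.732, 0.952 and 1.10 in Gata2 KO and 0.785, 0.905 and 0.959 in Gata2 f/f, lower in both libraries numbered 1 than in the other 4.

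**Figure D3:**
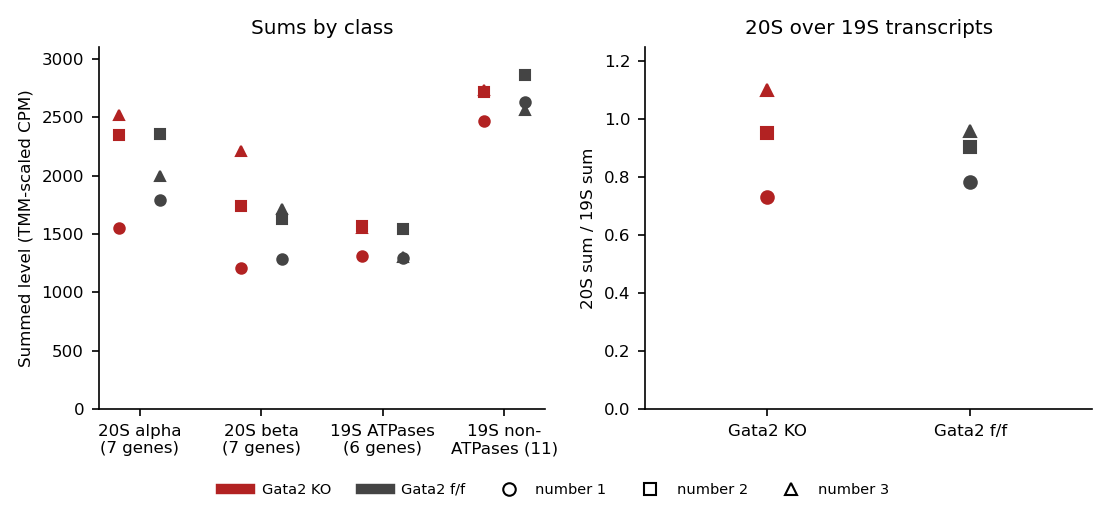
Left, the summed TMM-scaled CPM (vertical axis) of the genes of each class in each library; right, the 20S sum divided by the 19S sum. Each point is 1 library, red for Gata2 KO and grey for Gata2 f/f, with the shape giving the number; the beta sum spans 1210 to 2207 CPM in Gata2 KO, outside the 1290 to 1712 CPM of Gata2 f/f on both sides.

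Between libraries of the same number the sign of the difference was not constant. In number 1, 22 of the 31 genes were lower in Gata2 KO than in Gata2 f/f (median log2 difference -0.14), including all 7 alpha genes, while 52.6% of all genes were higher in Gata2 KO. In number 2, 16 were higher and 15 lower (median 0.02), beside 54.1% of all genes higher. In number 3, 27 were higher in Gata2 KO (median 0.30), including all 14 core genes, beside 49.7% of all genes. The number 3 difference was largest for Psmd8 (0.78), Psma7 (0.67) and Psmb2 (0.61) and lowest for Psmd2 (-0.58). Across the numbers, 7 of the 31 were higher in Gata2 KO in every pair, beside 20.7% of all genes, and 3 were lower in every pair, beside 17.7% of all genes. Transcript length moved with the difference in number 3. In number 3, genes of any kind with transcripts under 1.5 kb had a median log2 difference of 0.42 (1856 genes), those of 1.5 to 3 kb 0.09 (4240 genes) and those of 3 kb and over -0.29 (5962 genes). In number 1 the same medians were -0.07, 0.04 and 0.08, and in number 2 they were 0.08, 0.04 and 0.04. Genes under 1.5 kb deviated from their mean log2 CPM by medians of -0.22, 0.05 and 0.40 in Gata2 KO 1, 2 and 3. In Gata2 f/f 1, 2 and 3 these were -0.15, -0.02 and -0.02. For genes of 3 kb and over they were 0.18, 0.01 and -0.26 in Gata2 KO, and 0.10, -0.04 and 0.04 in Gata2 f/f. Genes under 1.5 kb were thus lowest in the libraries numbered 1. The core transcripts had a median length of 1.16 kb and the cap transcripts 1.64 kb, and the Spearman correlation of length with the difference was -0.13, -0.50 and -0.63 over the 31 members in numbers 1, 2 and 3. Over 12058 genes it was 0.10, -0.01 and -0.46. These describe genes that share the same libraries. The part of transcript length in the difference between libraries was not tested.

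**Figure D4:**
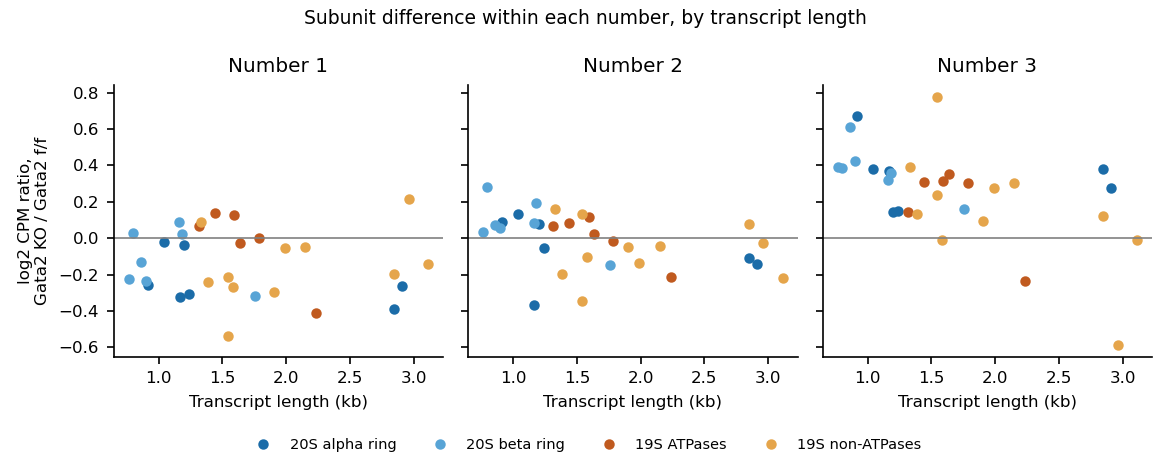
The log2 ratio of CPM in Gata2 KO over Gata2 f/f (vertical axis) of each of the 31 genes against the length of its principal transcript in kb (horizontal axis), in a panel for each number, coloured by class. In number 3 the short core genes lie above 0 and Psmd2, of 2.96 kb, lies at -0.58.

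Whether the subunit genes differed between the numbers was tested with the number term of the fit that holds genotype and number. Of the 31 members, 0 passed (edgeR, adjusted p), where 9.09% of all genes tested did, and 5 of 31 had an unadjusted p under 0.05, where 30.7% of all genes did. Psmb6 had the smallest p (adjusted p = 0.0707), followed by Psmb4 and Psma6 (adjusted p = 0.0936 and 0.101). Without the filter on low counts Psmb6 passed (edgeR, adjusted p = 0.0452; 9.76% of all genes), and it was the 1 member called for the number in the 8 settings run.

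Of 4 tested immunoproteasome and tissue-specific genes, 2 passed the number test, beside the 9.09% of all genes given above. The immunoproteasome forms can take the places of the catalytic subunits, and interferon gamma can induce them. Psmb9, the counterpart of Psmb6, was at 32.5, 34.7 and 85.1 CPM in Gata2 KO and at 30.9, 31.7 and 58.7 CPM in Gata2 f/f. Psmb10, the counterpart of Psmb7, was at 63.4, 62.9 and 142 CPM in Gata2 KO and at 58.5, 57.4 and 104 CPM in Gata2 f/f. Both were highest in the 2 libraries numbered 3 and passed (edgeR, adjusted p = 0.0341 for Psmb9 and 0.0363 for Psmb10). Psmb8, the counterpart of Psmb5, was also highest in these libraries, at 59.7, 78.7 and 121 CPM in Gata2 KO and at 83.8, 67.2 and 97.0 CPM in Gata2 f/f, but did not pass (adjusted p = 0.215). Between genotypes none passed: the log2 fold changes were 0.33 ± 0.45 for Psmb9, 0.28 ± 0.41 for Psmb10 and 0.07 ± 0.31 for Psmb8 (edgeR, adjusted p = 1.00 for each). The numbers' calls were lost when libraries were scaled by their totals (adjusted p = 0.0599 for Psmb9 and 0.0664 for Psmb10) and without the library labelled Gata2 KO 2 (0.0627 and 0.106), while that of the activator gene Psme2 held in both (0.0434 and 0.0166). The mature myeloid marker sums were highest in the same 2 libraries. Their part in the result was not tested, and in bulk RNA a larger share of mature cells and more RNA per cell cannot be told apart.

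The share of the immunoproteasome form in each catalytic pair did not differ between genotypes beyond the spread of the libraries. Psmb8 took 37.3%, 35.2% and 39.3% of the summed CPM of Psmb8 and Psmb5 in Gata2 KO, and 41.6%, 32.5% and 41.0% in Gata2 f/f. The means were 37.3% ± 2.05 in Gata2 KO and 38.4% ± 5.05 in Gata2 f/f (SD, n = 3 each; two-sided exact permutation test, p = 0.80). Psmb9 took 15.6%, 12.0% and 19.1% of its pair with Psmb6 in Gata2 KO, and 15.2%, 13.1% and 17.5% in Gata2 f/f (exact permutation p = 0.90). Psmb10 took 32.6%, 26.3% and 42.2% of its pair with Psmb7 in Gata2 KO, and 32.2%, 25.7% and 40.2% in Gata2 f/f (exact permutation p = 0.70). Adjusted over the 3 pairs each p was 0.90, and the smallest p that 3 libraries against 3 allow is 0.10. The Psmb10 share was higher in the KO library of every pair of equal number (exact sign-flip p = 0.25, the smallest that 3 pairs allow). The shares of Psmb10 lay closer between libraries of one number than between numbers, with number 2 lowest and number 3 highest in both genotypes. The thymus form Psmb11 had no reads in any library. The testis form Psma8 was low, at 3.82 to 13.4 CPM in Gata2 KO and 7.93 to 12.9 CPM in Gata2 f/f (-0.46 ± 0.47).

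**Figure D5:**
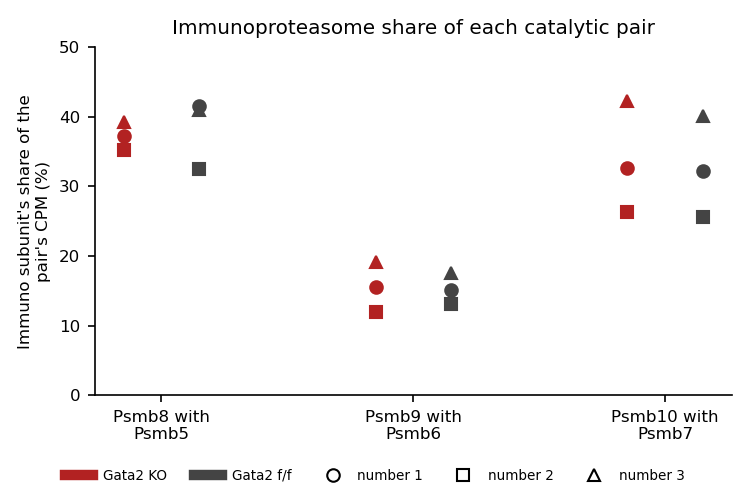
The share (vertical axis, %) of the immunoproteasome subunit in the summed CPM of each catalytic pair (horizontal axis), 1 point per library, red for Gata2 KO and grey for Gata2 f/f, with the shape giving the number. The Psmb10 shares run from 26.3% to 42.2% in Gata2 KO and from 25.7% to 40.2% in Gata2 f/f, in the same order of numbers.

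Of 5 tested activator and inhibitor genes of the core, 1 (Psme2) passed the number test, where 9.09% of all genes did. Psme2, a subunit of the interferon-inducible PA28 ring, was at 86.4, 123 and 245 CPM in Gata2 KO and at 101, 106 and 218 CPM in Gata2 f/f (number term, edgeR adjusted p = 0.0248). Its partner Psme1 was at 96.7, 102 and 228 CPM in Gata2 KO and at 112, 107 and 113 CPM in Gata2 f/f, high in Gata2 KO 3 alone (number term, adjusted p = 0.267; genotype 0.36 ± 0.36). Psme2 has a retrocopy, Psme2b, so its count is uncertain. Psme4, the large nuclear activator PA200, was at 141, 120 and 81.0 CPM in Gata2 KO and at 158, 161 and 121 CPM in Gata2 f/f. Each KO library lay below its partner (-0.36 ± 0.27; edgeR, adjusted p = 1.00; with the replicate block adjusted p = 0.464). The inhibitor gene Psmf1 was at 49.0 to 59.7 CPM in Gata2 KO and 50.5 to 55.6 CPM in Gata2 f/f.

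Genes for assembly, ubiquitin handling and regulation of the proteasome gave 0 calls between genotypes in edgeR, 0% of all genes being called. Of 8 assembly chaperone genes 4 had positive values (median -0.00). Pomp, the chaperone of core maturation, was at 132, 198 and 273 CPM in Gata2 KO and at 149, 186 and 181 CPM in Gata2 f/f. Its lowest library was Gata2 KO 1 and its highest Gata2 KO 3. Psmd9, another chaperone and the member of smallest p in that list, had a log2 fold change of 0.28 ± 0.21. Of 14 genes of the Nrf1 pathway 10 had positive values (median 0.09). Nfe2l1 itself was at 227, 157 and 112 CPM in Gata2 KO and at 190, 141 and 146 CPM in Gata2 f/f (0.06 ± 0.30), highest in the libraries numbered 1, where most subunit genes were low. Its transcript has 4.65 kb, and genes of 3 kb and over had median deviations of 0.18 in Gata2 KO 1 and 0.10 in Gata2 f/f 1. A relation of Nfe2l1 to the subunit genes was not tested. Nfe2l2, a relative of Nfe2l1 that encodes the oxidative stress factor Nrf2, was at 130, 122 and 148 CPM in Gata2 KO and at 110, 106 and 144 CPM in Gata2 f/f (0.16 ± 0.22). Ngly1, the glycanase that activates Nrf1, was at 19.8, 22.2 and 21.4 CPM in Gata2 KO, below the 22.8, 29.1 and 28.9 CPM of Gata2 f/f (-0.35 ± 0.22; edgeR, adjusted p = 1.00). It was the 1 gene of the 14 with KO lower and no overlap, beside 2.78% of all genes tested.

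Of 12 further cap and shuttle genes 3 had positive values (median -0.15), and Usp14, a deubiquitinating enzyme that docks on the cap, had the smallest p of the list. It was at 145, 172 and 134 CPM in Gata2 KO and at 198, 229 and 170 CPM in Gata2 f/f, below its partner in every number, with log2 differences of -0.45, -0.41 and -0.34. The log2 fold change of Gata2 KO over Gata2 f/f was -0.40 ± 0.22 (edgeR, adjusted p = 1.00; with the replicate block adjusted p = 0.433). Adrm1, a ubiquitin receptor of the cap chosen after its values were seen, was at 153, 143 and 175 CPM in Gata2 KO, above the 136, 125 and 135 CPM of Gata2 f/f (0.25 ± 0.20; edgeR, adjusted p = 1.00). The ubiquitin gene Ubb was at 739, 751 and 974 CPM in Gata2 KO and at 655, 729 and 801 CPM in Gata2 f/f (0.17 ± 0.23). Uba6, an E1 enzyme that activates ubiquitin and the ubiquitin-like FAT10, had the largest difference of all lists. It was at 30.1, 32.6 and 22.8 CPM in Gata2 KO, below the 48.3, 51.6 and 46.2 CPM of Gata2 f/f. Such a gap with KO lower was found for 2.78% of all genes tested. A log2 fold change of -0.77 ± 0.23 was not called by edgeR (unadjusted p = 0.0106, adjusted p = 1.00; with the replicate block adjusted p = 0.397). DESeq2 with the replicate block called it (-0.81, adjusted p = 0.0357), the 1 gene of these lists it called, beside 1.75% of all genes. Over the settings run its adjusted p went from 0.0357 to 1.00. The other E1 gene, Uba1, also named after its values were seen, was at 913, 714 and 945 CPM in Gata2 KO and at 743, 698 and 915 CPM in Gata2 f/f (0.13 ± 0.24).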

How the data were processed

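The authors deposited a single table of raw counts, with genes in rows and the 6 samples in columns. Per the labels' protocols, poly(A) RNA was made into NEBNext Ultra II libraries and sequenced as 90 bp paired-end reads. Per the submitters' processing notes, HTSeq, kallisto, DESeq2 and mm10 were used, in roles not stated there; for the annotation and strand setting the sources used here say nothing. Samples were grouped by title. Symbols came from GENCODE M21 (GRCm38): 49326 of 49585 identifiers matched without the version, and 0 columns were unused. Genes were filtered with filterByExpr (minimum count 10; 13744 kept, 99.9% of counts), scaled by TMM and tested with edgeR 4.0.16 (quasi-likelihood, robust, no block, R 4.3.3), with Benjamini-Hochberg adjustment over all genes at 0.05. Levels are TMM-scaled CPM. Intervals cover the spread between libraries only, and reads carried no molecular identifiers. Deviations from group means correlated at 0.29, 0.55 and 0.65 between same-numbered libraries, all over 0.1, which by the rule used pairs samples of equal number. Gata2 KO 2 and Gata2 f/f 1 also correlated (0.46), more than the libraries numbered 1 did with each other (0.29). Gata2 KO 1 and Gata2 f/f 2 were at 0.104, over 0.1 as well. The rule thus did not single out libraries of equal number, and it was applied to these same data. No libraries were duplicates (chi-square per degree of freedom at least 38.0). The lowest value, 38.0, was that of Gata2 KO 2 with Gata2 f/f 1. Gata2 KO 2 had 77.0 and 222 with Gata2 f/f 2 and 3, and 159 and 337 with Gata2 KO 1 and 3. Near-identical copies were sought with blastn (at least 95% identity over 200 bases). Alternatives were other scalings and filters, DESeq2 1.42.0, limma voom (limma 3.58.1), the block and leaving out libraries. The scripts were tested on simulated counts. The members and lists were chosen with earlier results of these data known. Genes named were the 3 catalytic subunits, those with extreme levels, fold changes or number-term p, and fixed members of each list, plus the smallest p of each; Psmd2, Adrm1 and Uba1 were added after their values were seen, Paaf1 of the chaperone list was not analysed here, and a gene covered by the naming rule is not reported here.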

Additional observations from a re-analysis of the deposited data

How the results depend on the processing

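In all settings 0 of the 31 subunit genes were called between genotypes: 3 other scalings, 2 other filters, DESeq2, limma voom, the replicate block, DESeq2 with the replicate block, each library left out, both libraries numbered 3 left out, and the library labelled Gata2 KO 2 left out with the replicate block. Over all genes the count was 0, but 7 with DESeq2, 222 with DESeq2 and the replicate block, and 54 with that block and without the library labelled Gata2 KO 2; edgeR with the replicate block called 0 genes and 0 subunits. Of the other pathway genes DESeq2 with the replicate block called 1 (Uba6), and for the number term the fit without a filter called 1 subunit (Psmb6). The cause was not tested. The median log2 fold change of the subunits was 0.07, 0.05 with DESeq2 size factors, -0.01 with library totals, 0.07 with the replicate block and -0.09 without both libraries numbered 3; over each library left out it ran from -0.08 to 0.16.

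Named genes changed sign, none of them called. Of 32 log2 fold changes, 12 reversed without Gata2 KO 3, among them the largest of the subunits (Psmd8, 0.32) and those of Psmb9, Psme1, Psmb10 and Psmb6. Psmd11 had -0.018 with DESeq2 size factors and in DESeq2, -0.020 with upper-quartile scaling, -0.017 in DESeq2 with the block, -0.077 with library totals, -0.057 without a filter, -0.00024 with a mean CPM of at least 1, -0.089 without both libraries numbered 3 and -0.040 with the block and without Gata2 KO 2. With library totals Psmb8 had -0.029 and Psme2 -0.0034. Nfe2l1 had -0.00028 without a filter, -0.0084 in DESeq2 with the block and -0.067 with the block and without Gata2 KO 2, where Psmb8 had -0.087 and Psme2 -0.030. Without both libraries numbered 3 the values were -0.10 for Psmb5, -0.051 for Psmb2, -0.058 for Psmd8, -0.16 for Psmb8, -0.17 for Psme1, -0.012 for Psme2 and -0.057 for Pomp. Over each library left out in turn, the log2 fold change ran from -0.26 to 0.25 for Nfe2l1, -0.083 to 0.43 for Pomp, -0.17 to 0.14 for Psma3, -0.013 to 0.39 for Psma6, -0.24 to 0.59 for Psmb10, -0.089 to 0.42 for Psmb2, -0.059 to 0.41 for Psmb4, -0.13 to 0.30 for Psmb5, -0.046 to 0.47 for Psmb6, -0.28 to 0.25 for Psmb8, -0.29 to 0.67 for Psmb9, -0.097 to 0.018 for Psmd11, -0.11 to 0.53 for Psmd8, -0.18 to 0.55 for Psme1 and -0.45 to 0.52 for Psme2. Without a change of sign it ran from -0.50 to -0.11 for Psmc6, -0.34 to -0.033 for Psmd14, 0.011 to 0.30 for Psmb7, 0.085 to 0.30 for Psmc1, 0.090 to 0.30 for Psmd4, -0.21 to -0.066 for Psmd1, -0.20 to -0.080 for Psmd7, -0.56 to -0.19 for Psme4, -1.04 to -0.15 for Psma8, 0.010 to 0.23 for Ubb, 0.053 to 0.27 for Nfe2l2, 0.014 to 0.17 for Psmf1, 0.15 to 0.34 for Psmd9, -0.50 to -0.29 for Ngly1, -0.55 to -0.29 for Usp14 and -0.89 to -0.66 for Uba6. The difference in immunoproteasome share, in percentage points, ran from -4.00 to 0.509 for Psmb8, -1.48 to 2.08 for Psmb9 and -3.19 to 4.80 for Psmb10; with the replicate block the exact sign-flip p was 0.75, 0.75 and 0.25, the last being the smallest that 3 pairs allow. The summed level difference ran from -203 to 1032 CPM, and was 213 CPM with DESeq2 size factors. With 3 libraries a group and standard errors of 0.20 or more, small differences were not detectable.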

Other observations

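Reads were assigned to copies of some subunit genes. At 95% identity or more over 200 bases, 11 of the 31 subunit genes matched another gene of the table (copies, or genes whose exons overlap), and for 8 of them those matches had more than 1% as many counts. The pseudogene Gm13835, identical to Psma3 over 665 bases, had 2165 counts over the 6 libraries (6.94% of those of Psma3), and Gm3375 had 2146 (12.0% of those of Psmb5). The copies Gm8394 and Gm12989 of Psma5 had 1064 and 446 counts. Psmd13 shares exon sequence with Sirt3 on the opposite strand, which had 6.80% as many counts, and Psmc3 with Slc39a13 (3.42%). The counts do not show from which copy a read came.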
